A study of Mus musculus with 46 samples.

Results

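The genes described here are 42 markers of hepatic stellate cells and genes of the collagen-rich matrix those cells lay down in fibrosis, out of 55416 genes counted in 46 mouse livers. They were chosen by name: 41 were matched to the count tables by symbol and Ctgf was matched under its current symbol, Ccn2. They comprise 12 stellate identity genes and 30 matrix and activation genes, the latter made up of 5 contractile and activation genes, 5 fibrillar collagens, 5 other collagens, 6 matrix proteoglycans and glycoproteins, 2 crosslinking enzymes, 4 matrix protease and inhibitor genes and 3 growth factors. Whole livers of male mice in 10 groups, snap frozen, were profiled by bulk RNA sequencing. In the Plvap line, named Plvaptm1.1Salm-Tg(Lrat-cre)1Rshw on C57BL/6JBomTac, stellate cell knockouts were compared with littermate controls. The labels give 1 allele name to both genotypes, so which alleles the controls carried is not given in the sources used here. Lrat-Cre recombines in stellate cells, and other liver cells keep the gene. On chow with a 12 h fast there were 6 controls and 5 knockouts, and on chow with a 10 h fast followed by 2 h of refeeding there were 4 and 4. Of the mice fed for 6 weeks and then fasted for 12 h, 5 controls and 4 knockouts received a western diet together with fructose water, and 5 and 5 received a high-fat diet with plain water. A separate chow experiment, with a 6 h fast, compared 4 whole-body knockouts of Cav1 (STOCK Cav1tm1Mls/J) with 4 C57BL/6N wild types, so that genotype and stock differ together there. Ages are not given in the sources used here.

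Hepatic stellate cells are the vitamin A storing pericytes of the sinusoid, lying between hepatocytes and the fenestrated endothelium. In a quiescent state they express desmin, reelin, PDGF receptors and secreted factors such as Cxcl12, Hgf and the collectins. On activation by TGF-beta and PDGF they turn into contractile myofibroblasts that make fibrillar collagens, the enzymes that crosslink them and the inhibitors that protect them from proteases. Several of the genes are also made by other liver cells: plasma fibronectin (Fn1) comes largely from hepatocytes, type IV collagens also from endothelium, and Acta2 and Tagln also from vascular smooth muscle.

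The libraries held 6656342 to 23311539 gene counts. Levels are given as CPM, counts scaled to library size by TMM over all libraries, and differences are log2 fold changes with their standard error from edgeR's quasi-likelihood test, adjusted over all genes tested; a gene is called when the adjusted p is under 0.05. Plvap, which encodes the diaphragm protein of caveolae and fenestrae, lay at 29.0 ± 4.91 CPM (SD, n = 6) in fasted controls and 5.80 ± 1.03 (n = 5) in fasted knockouts, and the control means of the other 3 states of the line (29.4 to 30.6 CPM) likewise lay above their knockout means (5.23 to 7.50 CPM) without overlap. Cav1, which encodes the coat protein of caveolae, lay at 4.66 ± 0.910 CPM (n = 4) in wild types and 0.769 ± 0.490 (n = 4) in Cav1 knockouts. The summed level of 8 hepatocyte markers, most of it albumin, differed with genotype: it ran from 54770 to 70910 CPM in fasted controls and from 90040 to 114000 in fasted knockouts, and from 65130 to 76820 in wild types and 81750 to 113500 in Cav1 knockouts. Refed (63430 to 73980 and 97080 to 101100) and high-fat groups (48690 to 56830 and 79640 to 112300) were separated in the same way, and western-diet groups (47520 to 67320 and 67220 to 91100) overlapped at the edge. Its part in the results below was not tested. 2 libraries are said to stand apart here because each was the highest of its group in 10 of 10 collagens. Replicate A of the western-diet controls was the highest of its group in 35 of the 42 genes and replicate C of the Cav1 knockouts in 25 of 42. Replicate C of the high-fat controls came next, in 22 of 42 genes and 9 of 10 collagens, and the other libraries had fewer genes and fewer collagens. In the western-diet control A the summed level of the 8 lymphocyte and neutrophil markers was 102 CPM against 20.5 to 29.7 in the rest of its group. That of the 12 Kupffer cell markers was 1270 CPM against 686 to 988. In the Cav1 knockout C these sums were 24.7 CPM against 12.5 to 14.8, and 606 CPM against 371 to 393. The main results that involve either of these 2 libraries, which stand apart, are given with and without it. Both were picked for their high collagens, so leaving them out lowers the collagen levels of their groups by construction. In whole liver, fewer stellate cells and less RNA per cell cannot be told apart. The labels do not say how the litters or cages were arranged, so the p-values measure the spread between these livers.

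Levels were first compared between genes, per kilobase of exon, in the chow fasted controls. The identity genes Cxcl12, Ecm1, Colec11 and Colec10 and the small proteoglycans Dcn, Lum and Bgn lay above every fibrillar collagen, and the other 8 identity genes lay below Col3a1. Fn1, the cell-binding glycoprotein fibronectin, came first at 71.6 ± 14.4 CPM per kb (SD, n = 6), followed by the chemokine Cxcl12 at 51.5 ± 8.14 and the small proteoglycan decorin (Dcn) at 39.8 ± 5.89. The spreads of neighbours among these 3 overlapped at 1 SD. Ecm1, a secreted glycoprotein that holds TGF-beta in its latent form, lay at 31.5 ± 6.48 CPM per kb, and the collectin Colec11 and the pericyte signalling regulator Rgs5 were level with each other at 18.4 ± 2.08 and 18.1 ± 3.28. The other collectin, Colec10, lay at 7.03 ± 0.703. Matricellular Sparc (10.3 ± 1.45), lumican (Lum, 8.55 ± 2.58) and biglycan (Bgn, 7.86 ± 0.587) formed the next group, the spread of Lum overlapping with both others. Among the collagens the order ran from Col14a1 (4.42 ± 0.460), which sits on the surface of collagen fibrils, through Col4a1 (2.83 ± 0.413) of the basement membrane and Col3a1 (2.52 ± 0.902) to Col1a2 (0.782 ± 0.11), Col1a1 (0.453 ± 0.134) and Col6a2 (0.284 ± 0.0412). The classical stellate markers were modest: Reln lay at 1.44 ± 0.142 CPM per kb, desmin (Des) at 1.21 ± 0.196 and the PDGF receptor Pdgfrb at 0.867 ± 0.117. Hepatocyte growth factor (Hgf, 0.566 ± 0.0880), Ngfr (0.493 ± 0.134), Adamtsl2 (0.590 ± 0.113) and the second PDGF receptor Pdgfra (0.429 ± 0.0547) were lower still, and the lineage factor Hand2 higher at 2.29 ± 0.365. Of the contractile and activation genes below Rgs5, vimentin (Vim) lay at 3.28 ± 0.650, Acta2 at 1.66 ± 1.13 and the actin-binding Tagln at 0.628 ± 0.3. Col4a2 (1.69 ± 0.305), Col6a1 (0.897 ± 0.203), Col5a1 (0.362 ± 0.0869) and Col5a2 (0.329 ± 0.0519) filled the rest of the collagen range, and the elastic fibre protein Fbln5 (0.807 ± 0.174) and the crosslinking enzyme Loxl1 (0.513 ± 0.127) lay among them. Ctgf (5.13 ± 1.60) and Tgfb1 (1.17 ± 0.261) were the higher of the growth factors, and Timp2 (2.63 ± 0.423) exceeded Mmp2 (0.575 ± 0.0672) and Timp3 (0.440 ± 0.134). The lowest were Tgfb3 (0.185 ± 0.0561), the intermediate filament Nes (0.189 ± 0.0758) and the collagen crosslinking enzyme Lox (0.119 ± 0.0516). Timp1, the metalloproteinase inhibitor that marks active fibrogenesis, had only 165 counts over all 46 libraries and never passed the filter on low counts. Lox passed it only in the fits that join the Plvap tables, so 40 of the genes were tested in most comparisons and 41 in the joint ones.

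**Figure D1:**
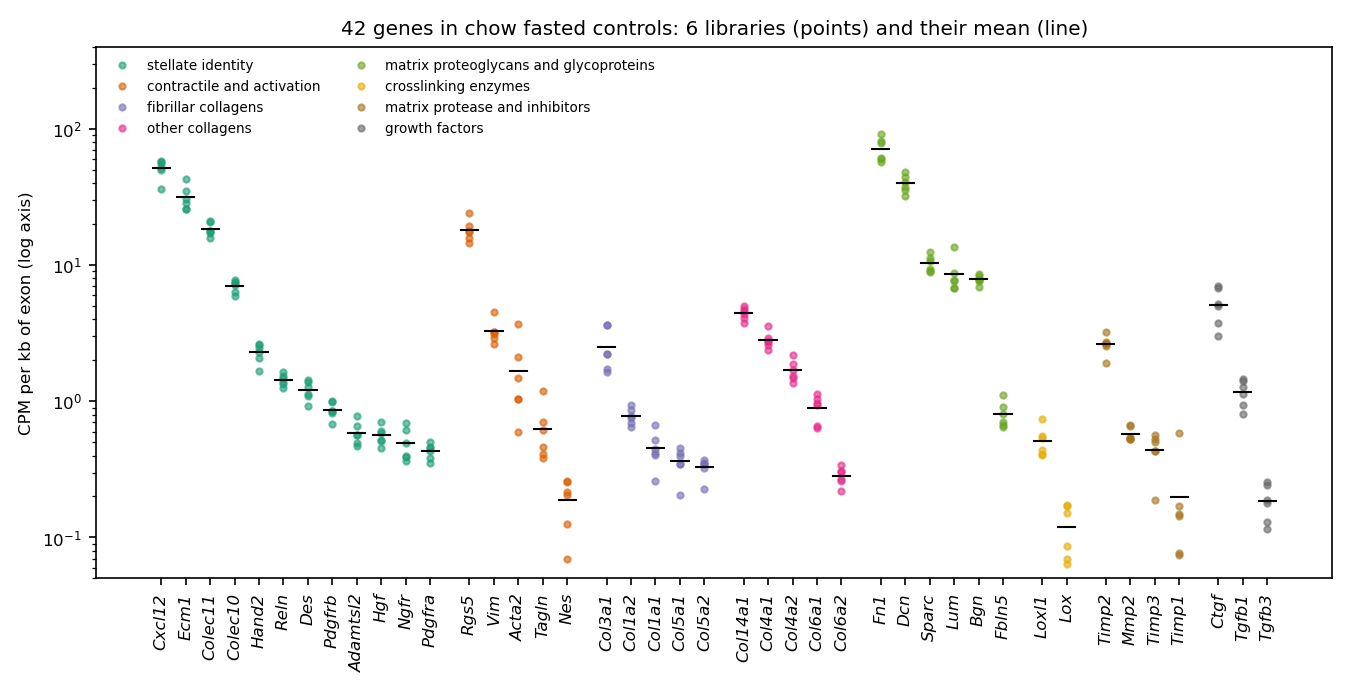
Levels of the 42 genes in the 6 chow fasted controls, as CPM per kilobase of exon on a log axis, coloured and grouped by role; points are livers (values of 0 cannot be drawn) and lines their means. Fn1, Cxcl12 and Dcn lie at the top (71.6, 51.5 and 39.8 CPM per kb) and Lox at the bottom (0.119).

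The balance of the 2 classes was given as the mean log2(CPM + 0.5) of the 12 identity genes minus that of the other 30. By this measure identity genes lay above the rest in every group by its median, from 0.380 in western-diet knockouts to 0.791 in Cav1 wild types. Summed CPM ran the other way, for example 478.4 to 694.6 for the 12 and 1215 to 1743 for the 30 in fasted controls. Within groups the difference ran from 0.522 to 0.828 in fasted controls and from 0.576 to 0.733 in fasted knockouts, which overlap. In western-diet controls it ran from -0.0312 to 0.706, and in western-diet knockouts from 0.238 to 0.516. The value below 0 belongs to replicate A of the western-diet controls. It was the one liver in which this mean was higher for the matrix and activation genes than for the identity genes. The Cav1 knockouts ran from 0.220, in replicate C, which stands apart, to 0.749, and their wild types from 0.753 to 0.848. The knockout values all lay below the wild-type values, but the nearest, 0.749 and 0.753, were close. These differences between groups were not tested.

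Loss of Plvap on chow after a fast left none of the 40 tested genes called, where 2.25% of all genes were (289 genes, and 90 to 550 with 1 library left out). At an unadjusted p under 0.05 there were 7 of the 40, all lower in the knockouts, against 17.6% of all genes in either direction and 8.61% lower; DESeq2 called 1, Col1a2. That gene, the alpha-2 chain of type I collagen, ran from 8.05 to 11.7 CPM in the 6 controls with a median of 9.57, and lay at 8.41, 7.45, 6.49, 5.23 and 7.93 CPM in the 5 knockouts. The groups overlapped by 1 knockout liver, and the log2 fold change was -0.46 ± 0.14 (adjusted p = 0.0987; 0.0499 by DESeq2). Its partner chain Col1a1 ran from 1.72 to 4.36 CPM with a median of 2.84 in controls and lay at 2.12, 0.810, 2.21, 1.74 and 2.21 in knockouts, a log2 fold change of -0.70 ± 0.26 (adjusted p = 0.164). Col3a1, the fibrillar collagen that accompanies type I, had -0.38 ± 0.23 (adjusted p = 0.439). The log2 fold changes of the 5 fibrillar collagens had a median of -0.38 and those of the 5 other collagens a median of -0.06, against -0.01 over all genes tested. Reln, the large secreted glycoprotein used as a quiescence marker, ran from 29.6 to 39.0 CPM with a median of 34.0 in controls and lay at 29.6, 32.9, 29.9, 22.9 and 27.7 in knockouts, with -0.26 ± 0.10 (adjusted p = 0.182). Des (-0.25 ± 0.17), Pdgfrb (-0.26 ± 0.15) and Acta2, the smooth muscle actin of activated stellate cells (-0.51 ± 0.39), overlapped between genotypes.

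After refeeding, again none of 40 genes was called, where 0.0227% of all genes were, and 4 had an unadjusted p under 0.05, against 7.74% of all genes; DESeq2 called 1, Cxcl12. The livers of this experiment vary together by replicate letter, and with the letter as a block the calls over all genes went from 3 to 30 while none of the 40 was called. Cxcl12 lay at 307, 319, 308 and 360 CPM in controls and 451, 465, 398 and 433.3 in knockouts. All knockouts were above all controls, and the log2 fold change was 0.44 ± 0.11 (adjusted p = 0.386; 0.0266 by DESeq2). Rgs5 showed the same separation, with 30.7, 42.8, 47.2 and 32.2 CPM in controls and 49.1, 50.5, 47.6 and 60.4 in knockouts (0.44 ± 0.16, adjusted p = 0.577). Colec11 was the third of the genes whose groups did not overlap, all 3 higher in knockouts, where 2.69% of all genes were. Colec10 had 0.34 ± 0.13 (adjusted p = 0.596). Among the genes followed in every comparison, Col1a1 had -0.06 ± 0.22, Col3a1 0.12 ± 0.20, Acta2 0.23 ± 0.26, Des -0.06 ± 0.19, Reln 0.05 ± 0.18 and Pdgfrb -0.39 ± 0.24, all overlapping between genotypes.

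On western diet none of 40 genes was called, where 0.0148% of all genes were; 6 had an unadjusted p under 0.05, against 9.79% of all genes, and DESeq2 called none. The log2 fold changes lay below 0 in 31 of the 40, with a median of -0.23 against -0.02 over all genes, and in 10 of 10 collagens. Without the control library that stands apart, 21 of the 40 lay below 0, with a median of -0.02, among them 5 of the 10 collagens. That library was picked for its high collagens, so an upward move of the collagens without it was fixed in advance. Col1a1 lay at 22.7, 4.98, 4.45, 2.40 and 4.98 CPM in controls and 4.46, 2.45, 3.73 and 5.13 in knockouts, so that apart from the first control the groups covered the same range (-1.04 ± 0.55, adjusted p = 0.553, and -0.11 ± 0.36, adjusted p = 0.962, without that library). Bgn, a small proteoglycan that binds type I collagen, had -0.56 with the library and -0.21 without it, and Col6a1, a chain of the beaded microfibrils around cells, had -0.66 and -0.26. Adamtsl2, a secreted protein that binds fibrillin microfibrils, kept more of its difference, with -1.01 ± 0.31 (adjusted p = 0.352) and -0.71 without the library. Acta2 (-0.20 ± 0.45), Pdgfrb (-0.25 ± 0.23), Reln (-0.21 ± 0.11), Des (0.03 ± 0.18) and Col3a1 (-0.13 ± 0.31) overlapped between genotypes. Without the library Acta2 had 0.34 ± 0.41 and Col3a1 0.30 ± 0.21.

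On high-fat diet none of 40 genes was called, where 0.281% of all genes were; 3 had an unadjusted p under 0.05, against 13.8% of all genes, and DESeq2 called none. Here 28 of 40 log2 fold changes lay above 0, with a median of 0.09 against 0.01 over all genes. Lum lay at 18.5, 18.2, 18.9, 14.8 and 16.6 CPM in controls and 9.64, 17.6, 8.25, 16.1 and 5.77 in knockouts, a log2 fold change of -0.62 ± 0.21 (adjusted p = 0.198). 3 knockout livers were below all controls and the remaining pair, replicates B and D, within them. The same pair was high for Dcn, at 216 and 215 CPM against 141, 124 and 121 in the other knockouts and 168 to 210 in controls. Hand2, a transcription factor of the stellate lineage, had 0.49 ± 0.21 (adjusted p = 0.301), or 0.25 (adjusted p = 0.683) without high-fat knockout E, and Hgf had -0.40 ± 0.19 (adjusted p = 0.360). Des was the one gene higher in all knockouts than in all controls (0.26 ± 0.17, adjusted p = 0.539), where 1.85% of all genes were so separated. Col1a1 (-0.33 ± 0.54), Col3a1 (-0.15 ± 0.30), Acta2 (0.34 ± 0.43), Pdgfrb (0.14 ± 0.22) and Reln (-0.19 ± 0.10) overlapped.

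**Figure D2:**
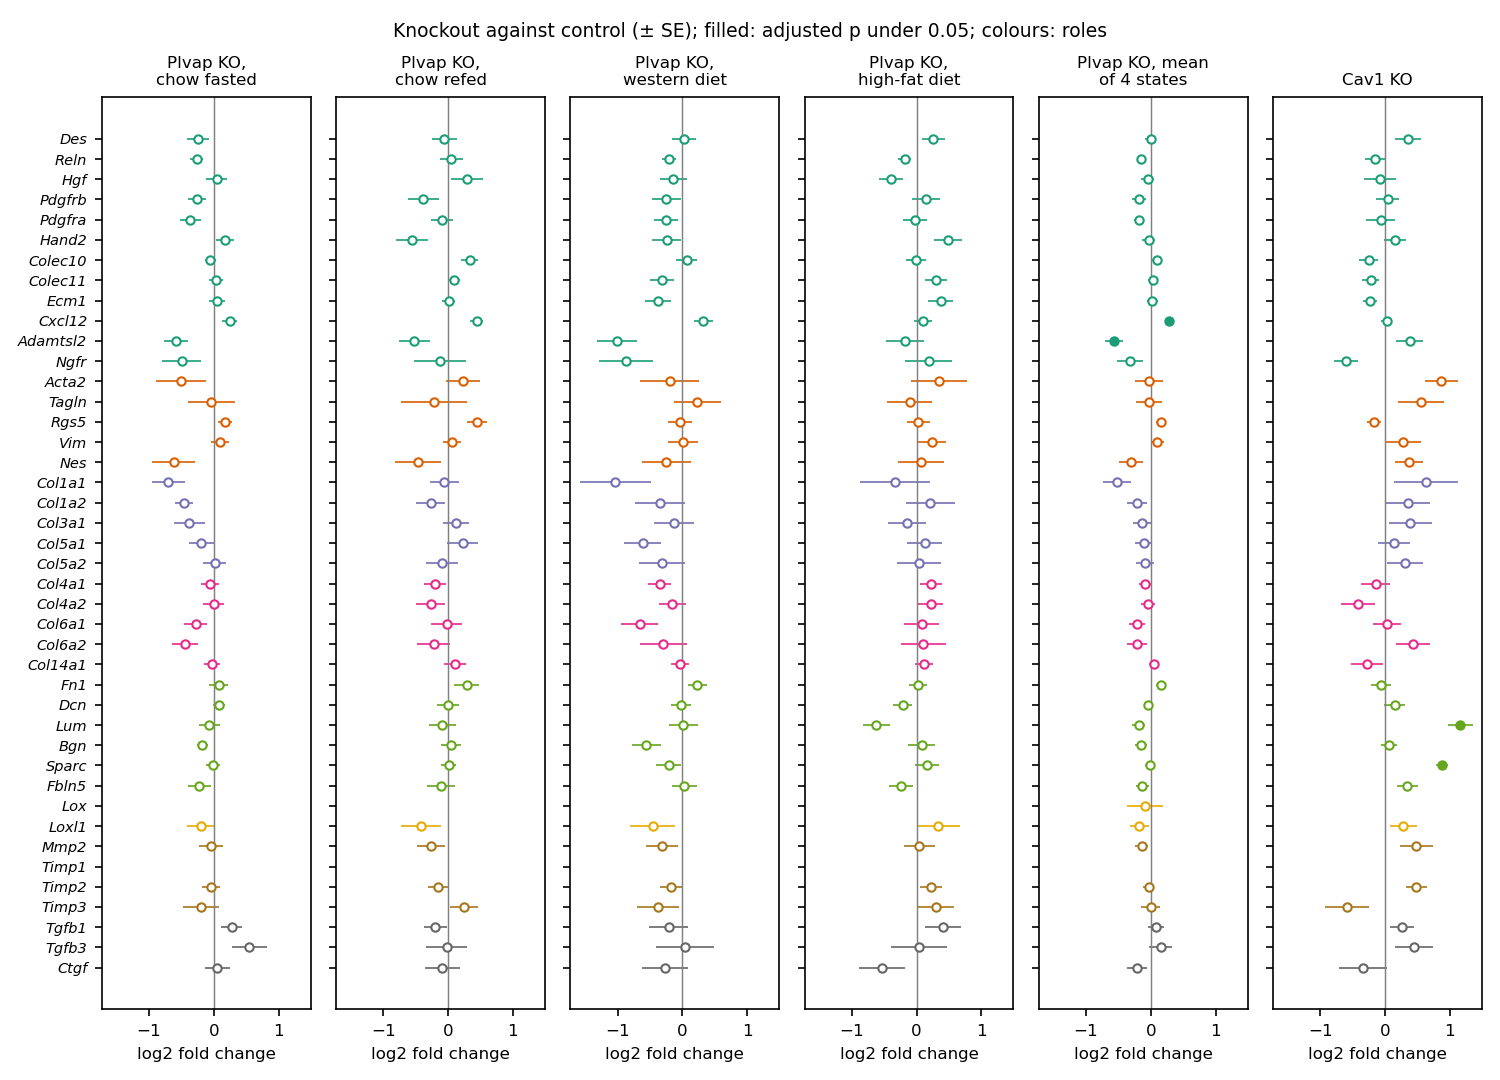
Log2 fold changes, knockout minus control, of the tested genes in the 4 states of the Plvap line, in their mean and in the Cav1 experiment, coloured by role; points are edgeR estimates (filled where called) and bars their standard errors. No gene is called in the 4 single Plvap comparisons, Adamtsl2 (-0.57) and Cxcl12 (0.28) are called in the mean, and Sparc (0.88) and Lum (1.16) are called in the Cav1 comparison.

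Whether the Plvap difference itself changed between states was tested directly. Over the 4 states no gene of 41 was called, and 0% of all genes were; at an unadjusted p under 0.05 there were 3, against 10.5% of all genes, and DESeq2 called none of the 41. The smallest p belonged to Hand2 (adjusted p = 0.342), followed among the identity genes by Ecm1 (adjusted p = 0.450) and Colec11 (adjusted p = 0.470). The same genes led the difference of the Plvap effect between the western and the high-fat diet, where again none of 40 was called, 0% of all genes were, 4 had an unadjusted p under 0.05, against 11.4% of all genes, and DESeq2 called none. There Ecm1 had a difference of log2 fold changes of -0.75, Colec11 of -0.62 and Hand2 of -0.73, with adjusted p of 0.340, 0.364 and 0.390. Without the western-diet control that stands apart, Colec11 had -0.40 (adjusted p = 0.536), Ecm1 -0.65 and Hand2 -0.63.

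Averaged over the 4 states, with each difference taken within its own table, 2 of 41 genes were called, both of the stellate identity class, where 5.58% of all genes were. Adamtsl2 was lower in the knockouts (2.45% of all genes were called lower) and Cxcl12 higher (3.13% were called higher). Cxcl12 is a chemokine of the perisinusoidal niche that retains blood cells bearing its receptor. The upstream promoter sequences of Adamtsl2 and Cxcl12 are shown because they are the genes called in this average. That of Col1a2 is added as one of the collagens that vary together between livers. Each is the 250 bases before the RefSeq start on GRCm38.p6, plus strand, 5′ to 3′, at chr2:27079129-27079378 for Adamtsl2, chr6:117168285-117168534 for Cxcl12 and chr6:4505368-4505617 for Col1a2. Capitals mark exact matches, on either strand, to the motif TATAAA of the classical core promoter element, to the motif CCAAT, and to the motif GGGCGG, the core of the binding motif of Sp1-type factors.
Adamtsl2: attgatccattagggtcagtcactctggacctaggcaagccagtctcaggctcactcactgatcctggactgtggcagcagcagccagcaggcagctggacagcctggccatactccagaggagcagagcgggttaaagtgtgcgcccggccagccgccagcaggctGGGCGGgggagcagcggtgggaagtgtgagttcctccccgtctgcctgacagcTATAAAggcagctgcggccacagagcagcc
Cxcl12: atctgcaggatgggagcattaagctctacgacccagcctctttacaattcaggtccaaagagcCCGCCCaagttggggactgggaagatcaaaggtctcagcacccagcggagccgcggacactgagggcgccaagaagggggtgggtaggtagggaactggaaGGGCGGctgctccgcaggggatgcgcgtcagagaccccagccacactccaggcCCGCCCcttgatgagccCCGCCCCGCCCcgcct
Col1a2: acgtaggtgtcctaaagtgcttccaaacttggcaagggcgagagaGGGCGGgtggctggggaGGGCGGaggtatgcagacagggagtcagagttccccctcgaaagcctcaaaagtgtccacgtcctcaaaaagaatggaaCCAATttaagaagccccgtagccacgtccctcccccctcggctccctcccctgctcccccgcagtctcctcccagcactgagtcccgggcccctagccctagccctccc
Adamtsl2 has TATAAA at 30 to 25 bases before its start and GGGCGG at 83 to 78. Cxcl12 has neither TATAAA nor CCAAT in this window and 5 matches to GGGCGG, 4 of them on the minus strand and 2 overlapping by 1 base. Col1a2 has CCAAT at 109 to 105 and GGGCGG at 205 to 200 and 188 to 183. RefSeq windows were matched for 28 of the 42 genes: TATAAA was in 4 of 28 against 12.4% of all 32851 windows, CCAAT in 9 of 28 against 33.8%, and GGGCGG in 18 of 28 against 32.7%. The 28 count genes with a match in any of their windows and the 32851 count single windows, so these shares are not like for like. A match is a run of letters and not a shown binding site.

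Adamtsl2 ran from 3.78 to 6.23 CPM with a median of 4.52 in fasted controls and lay at 2.19, 2.75, 3.71, 3.35 and 3.81 in fasted knockouts. After refeeding it lay at 6.20, 6.84, 12.2 and 10.7 CPM in controls and 5.76, 6.14, 7.68 and 5.21 in knockouts. On western diet it lay at 11, 4.98, 7.01, 4.42 and 4.70 CPM in controls and 2.33, 2.18, 5.66 and 2.66 in knockouts. Control means were above knockout means in each state, and the ranges overlapped in each. On high-fat diet the values were 5.08, 5.33, 5.76, 5.82 and 5.48 in controls and 3.61, 2.95, 4.49, 6.81 and 6.39 in knockouts, where 2 knockouts exceeded every control. The log2 fold changes by state were -0.58 ± 0.18 fasted, -0.52 ± 0.24 refed, -1.01 ± 0.31 on western diet and -0.18 ± 0.29 on high-fat diet. Their mean was -0.57 ± 0.13 (adjusted p = 0.00622), and it was -0.50 (adjusted p = 0.00897) without the western-diet control that stands apart. Leaving out each of the 38 libraries in turn gave -0.68 to -0.50, with a highest adjusted p of 0.0144. A difference between the states was not called (adjusted p = 0.662).

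Cxcl12 ran from 296 to 476 CPM with a median of 438 in fasted controls and lay at 514, 484, 417.2, 603 and 479 in fasted knockouts, 4 of which were above every control. The refed values, given above, did not overlap. On western diet it lay at 293, 286, 370, 381.1 and 289 CPM in controls and 349, 550, 411.7 and 314 in knockouts. The high-fat values were 368, 288, 315, 375 and 313 in controls and 383.9, 390, 310, 365 and 326 in knockouts, the closest of the 4 pairs of groups. By state the log2 fold changes were 0.24 ± 0.12, 0.44 ± 0.11, 0.32 ± 0.15 and 0.10 ± 0.14, in the order fasted, refed, western diet and high-fat diet. The mean was 0.28 ± 0.07 (adjusted p = 0.00825), or 0.27 (adjusted p = 0.0101) without the western-diet control, and 0.23 to 0.30 with each library left out, with a highest adjusted p of 0.0223. Both genes are thus called only as averages of differences that single states did not call with edgeR. In the Cav1 experiment neither was called, with 0.38 ± 0.21 for Adamtsl2 (adjusted p = 0.342) and 0.02 ± 0.08 for Cxcl12 (adjusted p = 0.900). None of the 29 matrix and activation genes tested in the joint fit was called in the average, and 23 of them lay below 0. Of all 41 genes tested 31 lay below 0, with a median of -0.0878 against -0.00425 over all genes. Without the western-diet control that stands apart 23 of the 41 lay below 0, with a median of -0.02. Of the 29 matrix and activation genes 1 had an unadjusted p under 0.05, against 19.6% of all genes. That gene was Col1a1 (-0.53 ± 0.22, adjusted p = 0.157, and -0.30 without the western-diet control). Among the other identity genes, Reln had -0.15 ± 0.06 (adjusted p = 0.179), Pdgfrb -0.18 ± 0.10 (adjusted p = 0.331) and Des lay at 0 to 2 decimals, with an SE of 0.09 (adjusted p = 0.996). Acta2, a marker of the activated cell, had -0.03 ± 0.21 (adjusted p = 0.964).

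**Figure D3:**
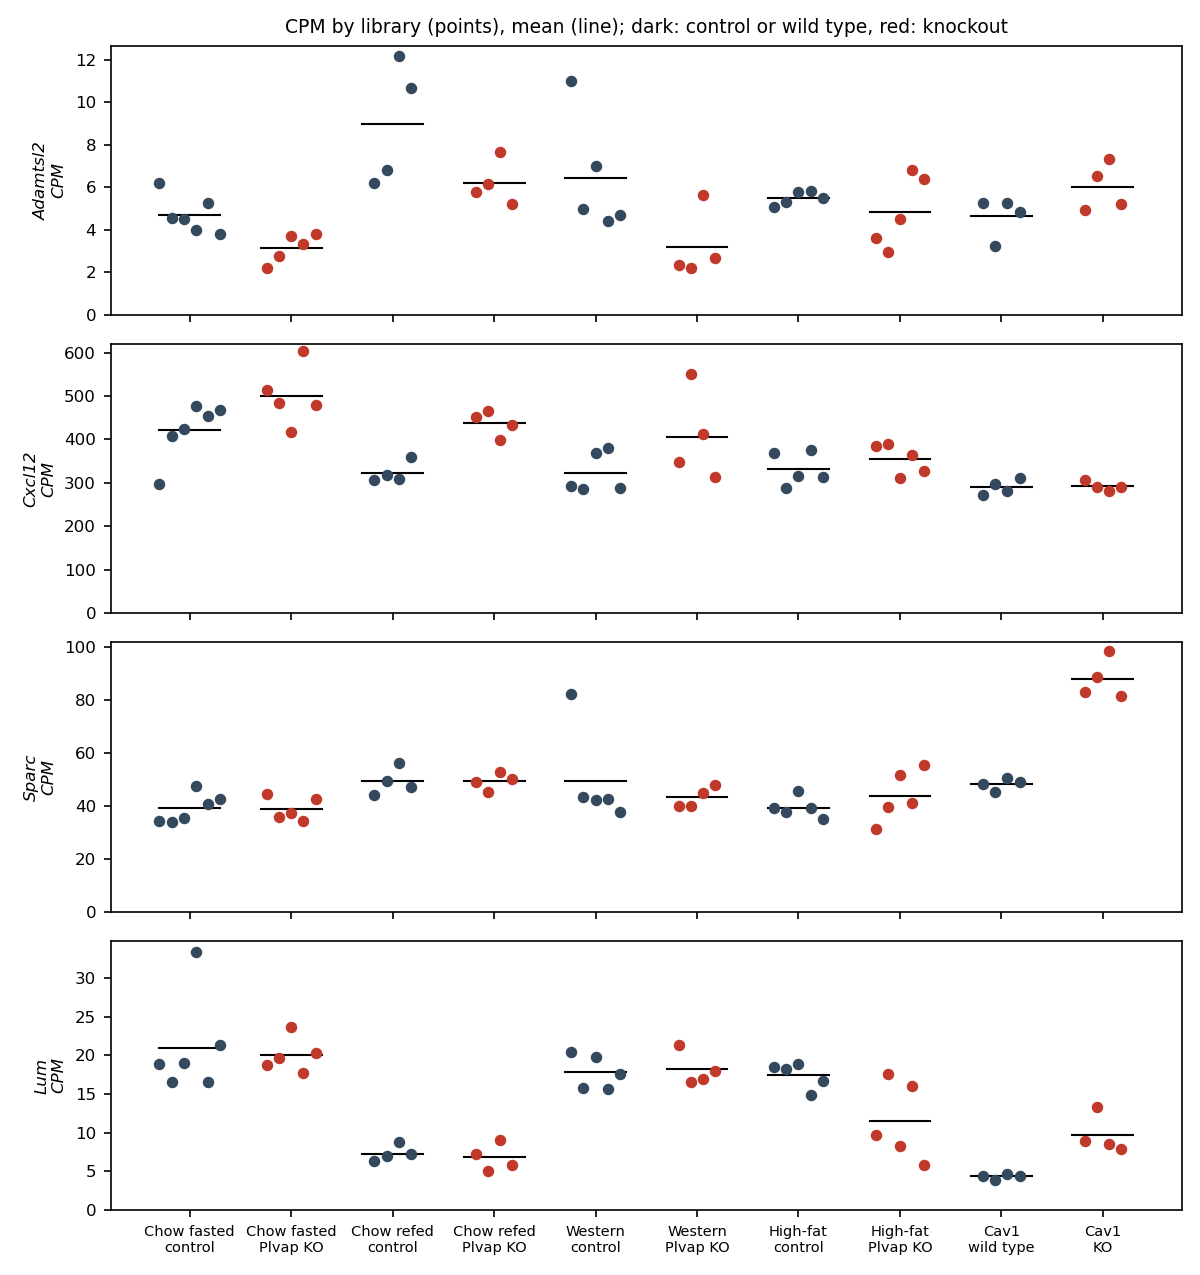
Levels of Adamtsl2, Cxcl12, Sparc and Lum in CPM in each of the 46 libraries by group; points are livers and horizontal lines group means. Adamtsl2 means are lower and Cxcl12 means higher in each Plvap knockout group than in its controls, and Sparc and Lum in the 4 Cav1 knockouts lie above the 4 wild types.

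A pair of secreted matrix proteins had higher RNA in the Cav1 knockouts than in the wild types, which are of another stock. Of 40 genes tested, 2 were called, near the 4.68% of all genes called in either direction. Both were higher, where 2.57% of all genes were called higher. Sparc, a matricellular protein that binds collagen, lay at 48.4, 45.1, 50.5 and 48.9 CPM in wild types and 83.2, 88.6, 98.4 and 81.6 in knockouts, a log2 fold change of 0.88 ± 0.09 (adjusted p = 0.000247). Lum, the proteoglycan lumican that spaces collagen fibrils, lay at 4.39, 3.92, 4.69 and 4.45 CPM in wild types and 8.97, 13.4, 8.53 and 7.83 in knockouts, with 1.16 ± 0.19 (adjusted p = 0.00478). All knockouts were above all wild types for both genes, which held for 6.13% of all genes. Without the knockout library that stands apart, replicate C, the values were 0.82 (adjusted p = 0.000493) and 1.21 (adjusted p = 0.00723). Leaving out each of the 8 libraries in turn gave 0.82 to 0.91 for Sparc and 0.96 to 1.25 for Lum, called each time. The Lum value of 13.4 CPM came from replicate B, which also had the highest Dcn, at 146 CPM against 84.8 to 94.3 in the other knockouts and 89.3 to 99.8 in wild types. Since the Cav1 knockouts are of another stock than the wild types, the deletion and the stock cannot be told apart.

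Acta2 lay at 2.93, 3.00, 3.72 and 3.56 CPM in wild types and 9.32, 4.96, 5.79 and 3.79 in Cav1 knockouts. It was higher in all knockouts than in all wild types, as were 6.13% of all genes. Its log2 fold change of 0.87 ± 0.26 was not called by edgeR (adjusted p = 0.101) and just called by DESeq2 (adjusted p = 0.0495). It was 0.56 without knockout A, the highest liver, and 1 of the 8 fits with 1 library left out called it (1.03, adjusted p = 0.0445, without knockout D). Ngfr, the low-affinity neurotrophin receptor found on stellate cells, moved the other way, with 6.49, 5.42, 6.64 and 5.73 CPM in wild types and 2.89, 3.77, 5.17 and 4.04 in knockouts (-0.60 ± 0.19, adjusted p = 0.114). The type I and III collagens were spread by replicate C: Col1a1 lay at 7.89, 5.19, 13.1 and 11 CPM in wild types and 10.2, 7.15, 29.4 and 10.5 in knockouts (0.63 ± 0.49, adjusted p = 0.512), and Col3a1 had 0.39 ± 0.33. Without replicate C they had 0.01 ± 0.30 and 0.04 ± 0.24. The identity genes followed in every comparison overlapped, with 0.35 ± 0.21 for Des, -0.16 ± 0.16 for Reln and 0.04 ± 0.18 for Pdgfrb.

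The diets were set against chow across tables, so that diet and table cannot be told apart, and the western and high-fat comparisons share the chow groups. In western-diet controls 3 of 41 genes were called, where 1.81% of all genes were: Col1a1 and Mmp2 higher and Colec10 lower. Col1a1 had 1.43 ± 0.39 (adjusted p = 0.0454), from 1.72 to 4.36 CPM on chow to 2.40 to 22.7 on western diet, with overlap. Mmp2, the gelatinase of stellate cells, lay at 5.47, 2.49, 3.54, 2.67 and 2.14 CPM on western diet and from 1.77 to 2.24 with a median of 1.81 on chow (0.77 ± 0.19, adjusted p = 0.0265). Colec10, a collectin that serves as a quiescence marker, lay at 15.1, 23.8, 28.1, 22.6 and 19.2 CPM on western diet and from 27.3 to 35.5 with a median of 33.4 on chow (-0.56 ± 0.13, adjusted p = 0.0124). Without the western-diet control that stands apart none of the 3 was called: the log2 fold changes were 0.51 (adjusted p = 0.506) for Col1a1, 0.49 (adjusted p = 0.190) for Mmp2 and -0.45 (adjusted p = 0.0572) for Colec10. Leaving out replicate B, D or E of the chow controls also left only 1 of the 3 counted as called. That library had 163 CPM over the 5 fibrillar collagens against 40.0 to 55.9 in the rest of its group, and its 12 identity genes, at 523 CPM, lay within the 463 to 589 of the rest. Its further stellate markers (127 CPM against 63.7 to 81.6) and portal fibroblast markers (22.7 CPM against 9.54 to 12.5) also stood above the others.

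The western-diet knockouts, which do not include that library, called none of 41 genes against chow knockouts, where 2.27% of all genes were called; 13 had an unadjusted p under 0.05, against 15.4% of all genes, and DESeq2 called 1, Col3a1. Col3a1 lay at 38.2, 30.7, 34.1 and 48.3 CPM on western diet and 23.6, 15.8, 17.8, 14.3 and 23.6 on chow. All western-diet livers were above all chow livers, as was so for 3.61% of all genes. The log2 fold change of Col3a1 was 1.00 ± 0.29 (adjusted p = 0.0583 by edgeR and 0.0195 by DESeq2). Col1a1 was separated in the same way, at 4.46, 2.45, 3.73 and 5.13 CPM against 2.12, 0.810, 2.21, 1.74 and 2.21 (1.11 ± 0.46, adjusted p = 0.231). All 5 fibrillar collagens lay above 0, with a median log2 fold change of 0.83 against 0.01 over all genes. Colec10 (-0.44 ± 0.14, adjusted p = 0.0946) was lower in every western-diet knockout than in every chow knockout, as were 4.81% of all genes. Ctgf had -0.92 ± 0.32 (adjusted p = 0.129), and Acta2 (-0.04 ± 0.44), Pdgfrb (0.12 ± 0.22) and Des (0.11 ± 0.18) were close to 0.

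High-fat livers were compared with chow in the same way. In controls 1 of 41 genes was called, where 8.46% of all genes were: Ctgf, a matricellular factor that acts with TGF-beta and is a target of the Hippo pathway. It lay at 6.39, 11.2, 7.40, 4.22 and 5.75 CPM on high-fat diet and from 8.58 to 20.0 with a median of 14.6 on chow (-1.02 ± 0.29, adjusted p = 0.0275), and it stayed called in 5 of the 11 fits that leave out 1 library. Cxcl12 (-0.33 ± 0.12, adjusted p = 0.0941) and Hgf (0.43 ± 0.19, adjusted p = 0.152) came next. In knockouts 6 of 41 were called, where 15.4% of all genes were. Ctgf lay at 4.15, 6.04, 5.45, 4.18 and 4.86 CPM against 13.4, 13.7, 15, 17.0 and 17.4 on chow (-1.62 ± 0.31, adjusted p = 0.000754). All its high-fat values were below all its chow values, as was so for 5.04% of all genes. Dcn (-0.58 ± 0.14, adjusted p = 0.00440), Lum (-0.80 ± 0.20, adjusted p = 0.00624) and Cxcl12 (-0.48 ± 0.13, adjusted p = 0.0110) were also lower. Nes, an intermediate filament of progenitor-like and activated pericytes, was higher, with 1.40, 1.47, 2.50, 2.24 and 3.28 CPM against 0.752, 0.405, 1.07, 0.938 and 0.738 (1.48 ± 0.39, adjusted p = 0.00835). The basement membrane chain Col4a2 was higher too (0.60 ± 0.21, adjusted p = 0.0429), a call that 2 of the 10 fits with 1 library left out kept. Col1a1 and Col3a1 were not called in either genotype.

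Within the diet table, where both diets were counted together, no gene of 40 was called between western and high-fat controls, where 2.09% of all genes were; 4 had an unadjusted p under 0.05, against 15.1% of all genes, and DESeq2 called none. Col1a2 led with 0.92 ± 0.37 (adjusted p = 0.238), which was 0.23 without the western-diet control that stands apart, and Col3a1 had 0.73 ± 0.30, which was 0.30 without it. Hgf had -0.45 ± 0.19 (adjusted p = 0.251). In knockouts 2 of 40 were called, both lower on western diet, where 4.01% of all genes were called lower and 8.45% in either direction. Timp3, the matrix-bound metalloproteinase inhibitor, lay at 1.52, 2.18, 2.40 and 1.21 CPM on western diet and 3.39, 3.31, 3.61, 4.67 and 4.30 on high-fat diet (-1.08 ± 0.32, adjusted p = 0.0386). All its western-diet values were below all its high-fat values, as was so for 5.41% of all genes. Ecm1 lay at 41.8, 59.4, 76.6 and 63 CPM and 88.1, 70.4, 95.8, 77.4 and 151 (-0.70 ± 0.21, adjusted p = 0.0417). Both calls are close to the threshold: Timp3 stayed called in 2 of the 9 fits with 1 library left out and Ecm1 in 3 of 9, with -0.45 (adjusted p = 0.129) without high-fat knockout E, its highest liver. Colec11 came next (-0.57 ± 0.18, adjusted p = 0.0570).

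**Figure D4:**
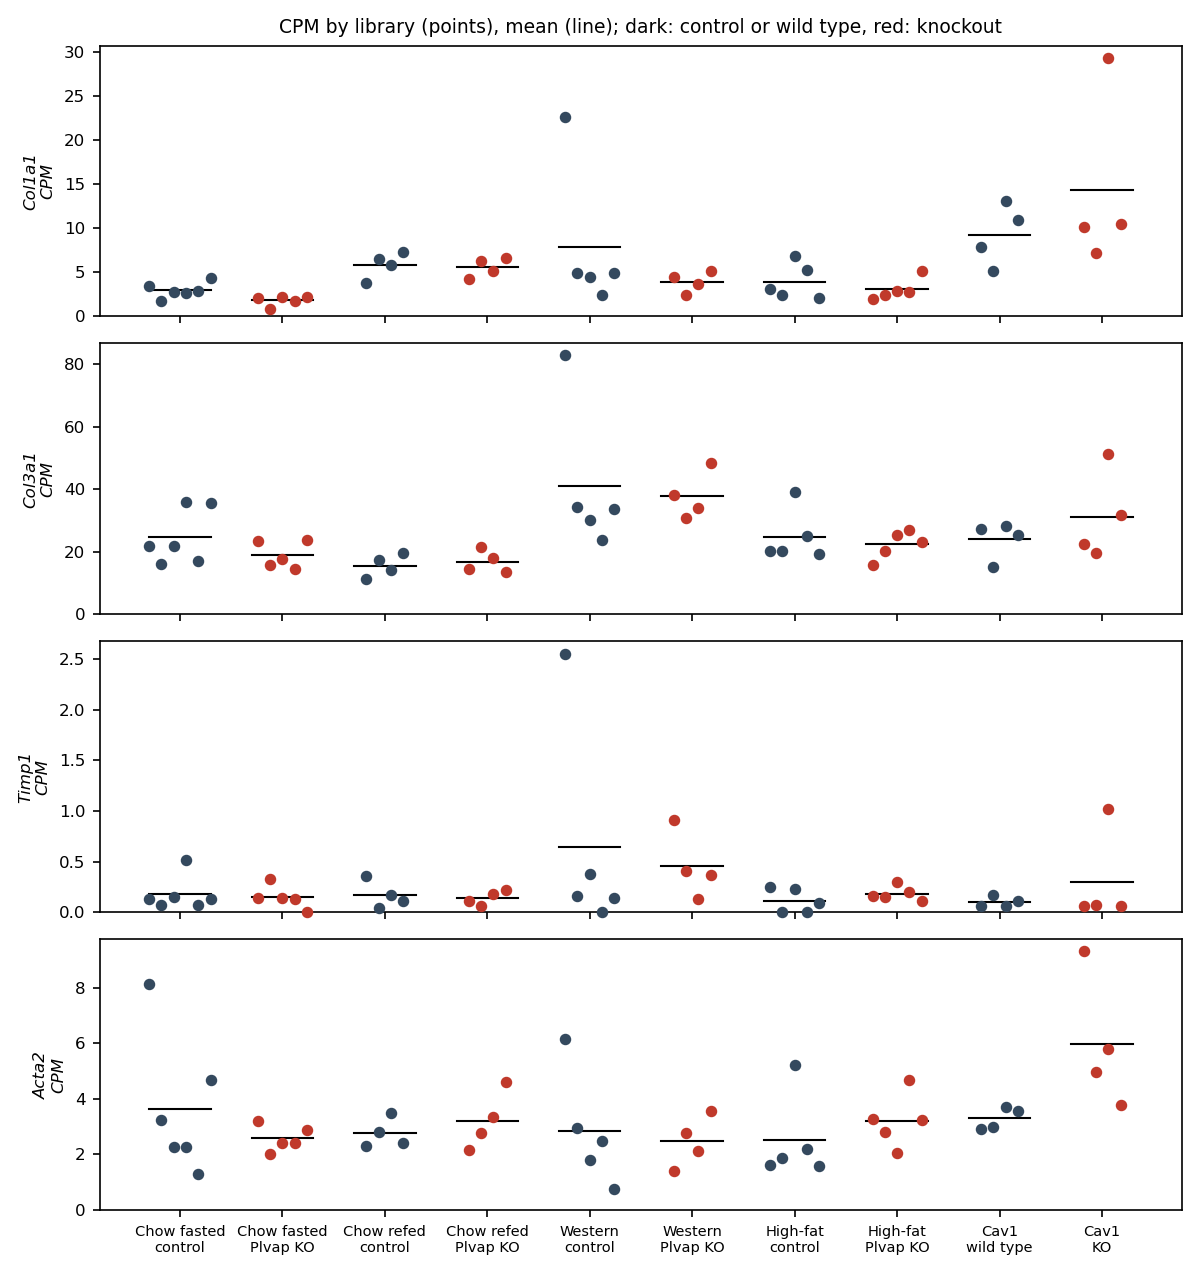
Levels of Col1a1, Col3a1, Timp1 and Acta2 in CPM in each of the 46 libraries by group; points are livers and horizontal lines group means. Replicate A of the western-diet controls is the highest liver for Col3a1 (83.1 CPM) and Timp1 (2.55 CPM), and replicate C of the Cav1 knockouts the highest for Col1a1 (29.4 CPM).

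Timp1 was near the limit of detection everywhere. Its group means ran from 0.101 CPM in Cav1 wild types to 0.644 in western-diet controls, with 7 to 50 counts per group. In western-diet controls it lay at 2.55, 0.156, 0.377, 0 and 0.138 CPM, and in Cav1 knockouts at 0.0590, 0.0662, 1.02 and 0.0642, so in both groups the library that stands apart carried the level. The span of Syn1, another gene on the X chromosome, overlaps that of Timp1. Overlap of their exons was not examined and the counting strand is not stated in the sources used here, so whether they share reads is not known. The same holds for Tagln with Pcsk7, Tgfb3 with Ttll5, Hand2 with Hand2os1 and Timp3 with Syn3.

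Refed and fasted livers differed in a large share of all genes, and the genes described here moved with them. These groups come from 2 tables, so feeding and table cannot be told apart. In controls 24 of 41 genes were called, 19 higher after refeeding (24.1% of all genes were called higher) and 5 lower (22.7%), 46.9% of all genes being called in either direction. In knockouts 19 of 41 were called, 16 higher (24.6% of all genes) and 3 lower (22.6%), against 47.2% of all genes in either direction. The median log2 fold change of the 41 was 0.34 in controls and 0.39 in knockouts, against 0.01 and 0.00 over all genes. The type IV and VI collagens were higher as a class, 4 of 5 other collagens being called in each genotype. Col4a2 lay at 21.3, 33.9, 34.7 and 38.5 CPM in refed controls and from 9.04 to 14.6 with a median of 10.6 in fasted controls (1.53 ± 0.20, adjusted p = 1.38e-07). Col4a1 had 1.09 ± 0.17 in controls and 0.95 ± 0.18 in knockouts, and Timp3 1.39 ± 0.27 and 1.83 ± 0.29. Nes had 1.93 ± 0.34 and 2.09 ± 0.39, and Ngfr 1.47 ± 0.36 and 1.86 ± 0.39.

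Tgfb1 in controls and the PDGF receptor Pdgfrb in both genotypes were also higher after refeeding. Tgfb1, the main fibrogenic cytokine, lay at 10.8, 14.1, 13.2 and 9.22 CPM in refed controls and from 4.06 to 7.39 in fasted controls (1.02 ± 0.23, adjusted p = 0.000468); in knockouts it was not called. Pdgfrb was called in both genotypes (0.66 ± 0.19, adjusted p = 0.00513, and 0.54, adjusted p = 0.0321). In knockouts that call was kept in 6 of 9 fits with 1 library left out, with 0.36 (adjusted p = 0.190) without refed knockout B, and was lost with the replicate block (0.53, adjusted p = 0.0502). Col1a1 was higher too (0.99, adjusted p = 0.0453, in controls and 1.63 ± 0.45, adjusted p = 0.00318, in knockouts), the control call being kept in 2 of 10 fits with 1 library left out. Lum, Dcn and Rgs5 went the other way. Lum lay at 6.29, 6.95, 8.74 and 7.21 CPM in refed controls and from 16.5 to 33.3 in fasted controls (-1.51 ± 0.21, adjusted p = 4.47e-07), and at -1.53 ± 0.22 in knockouts. Dcn had -0.67 ± 0.14 and -0.76 ± 0.15, and Rgs5 -1.09 ± 0.17 and -0.82 ± 0.17, each called. Col3a1 was lower without a call in controls (-0.65, adjusted p = 0.0581), the opposite sign to Col1a1. Acta2 (-0.40 ± 0.40 and 0.33 ± 0.42), Des (0.02 ± 0.17 and 0.21 ± 0.18) and Reln (-0.15 ± 0.12 and 0.17 ± 0.13) were not called in either genotype. The Kupffer cell markers fell with refeeding, 7 of 12 called lower in controls and 8 of 12 in knockouts, with summed levels of 366 to 524 CPM in refed and 629 to 969 in fasted controls; their part in these results was not tested.

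The genes were then compared liver by liver, with group means removed, over the 46 libraries. These correlations are descriptions, and libraries share depth, TMM scaling and cell make-up. The 10 pairs of fibrillar collagens had a median r of 0.674 (0.456 to 0.827), and the 66 pairs of identity genes one of 0.111 (-0.296 to 0.592), against 0.254 over all 861 pairs. Without the 2 libraries that stand apart, over 44 libraries, the medians were 0.486 for fibrillar collagens, 0.113 for identity genes and 0.152 over all pairs. Col1a1 varied most between livers of a group, with a residual SD of 0.604 on the log2 scale, followed by Acta2 at 0.540, and Cxcl12 varied least at 0.190. Neither SD nor r was corrected for counting noise, which is greater for genes with few counts. Over all libraries Col1a1 had 4021 counts and Acta2 2306, against 259809 for Cxcl12. Over the 44 libraries Acta2 varied most at 0.505, Col1a1 had 0.445 and Sparc varied least at 0.170. Genes most like Col1a1 were Col3a1 (r = 0.827, and 0.712 over 44 libraries), Col1a2 (0.790 and 0.564) and Bgn (0.773 and 0.600). At the other end Colec10 (-0.290), Cxcl12 (-0.248) and Dcn (-0.127) had a negative r with it, which over 44 libraries was 0.00524, -0.212 and -0.0805.

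**Figure D5:**
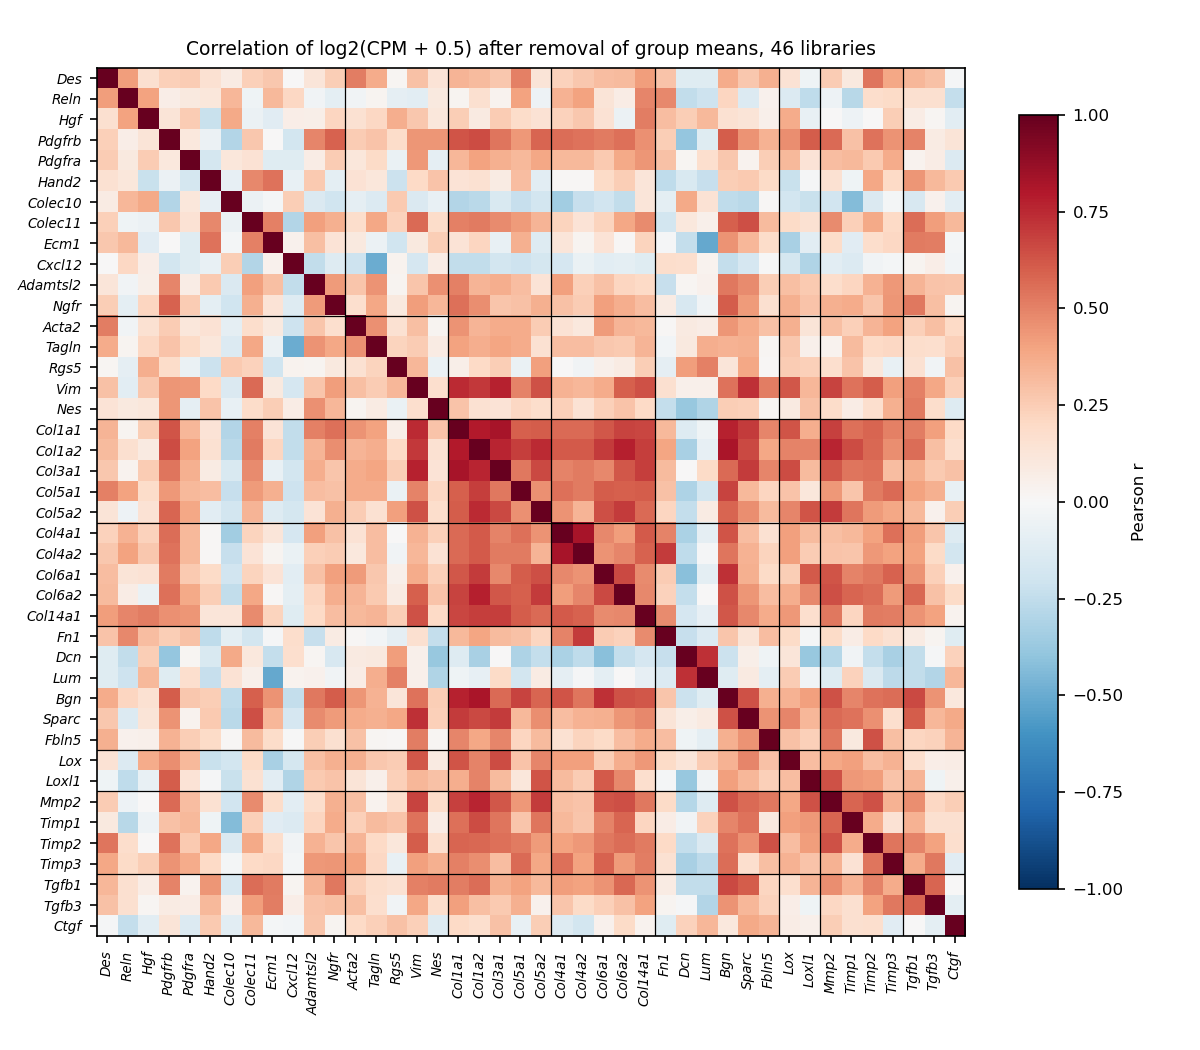
Pearson correlations between the 42 genes over 46 libraries after removal of group means, ordered by role. The block of fibrillar collagens (median r = 0.674) stands out from the block of identity genes (median r = 0.111).

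Gene position was shared by some of the pairs that varied together, in GRCm39 coordinates of the deposited tables. Genes on different chromosomes also varied together: Col1a1 (chromosome 11) and Col3a1 (chromosome 1) had r = 0.827 over 46 libraries and 0.712 over 44. Whether position bears on r was not tested. Col4a1 (chromosome 8, 11248423 to 11362826, minus strand) and Col4a2 (11362805 to 11499287, plus strand) start head to head, and had r = 0.827 over 46 libraries and 0.792 over 44. Dcn (chromosome 10, 97315471 to 97354005) and Lum (97400990 to 97408565) lie side by side on the plus strand, and had r = 0.733 and 0.744. Both were lower after refeeding and lower in high-fat knockouts against chow knockouts, whereas in Cav1 knockouts Lum was called higher and Dcn had 0.15 ± 0.16 (adjusted p = 0.634). Col3a1 (chromosome 1, 45350698 to 45388866) and Col5a2 (45413481 to 45542442) had r = 0.660 and 0.455, and Col6a1 (chromosome 10, 76544626 to 76562002) and Col6a2 (76431596 to 76459464) 0.662 and 0.424. The pair with the lowest r was Ecm1 and Lum, at -0.514 and -0.579.

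Other genes of the same pathways were taken from lists of TGF-beta signalling, PDGF ligands, collagen processing, further matrix proteins and metalloproteinases. In the average over the 4 Plvap states 4 of 20 TGF-beta genes were called, 2 in each direction, where 5.58% of all genes were (3.13% higher and 2.45% lower). The receptor Tgfbr2 (0.23 ± 0.05, adjusted p = 0.00349) and the oxidase Nox4 (0.32 ± 0.10, adjusted p = 0.0463) were higher, and the matricellular gene Ccn1 (-0.94 ± 0.23, adjusted p = 0.00972) and the inhibitory Smad7 lower. No gene of 4 PDGF ligands and none of 13 collagen processing genes was called there. Of 15 further matrix proteins Col18a1 was called (0.22 ± 0.07, adjusted p = 0.0459), and of 4 metalloproteinases tested Mmp9 (0.76 ± 0.24, adjusted p = 0.0479), both higher. Lrat, the retinol esterifying enzyme whose promoter drives the Cre, was not called in any knockout comparison. The summed level of the 11 further stellate markers, Lrat among them, was not tested. It ran from 87.8 to 109 CPM in refed controls and from 110.5 to 138.1 in refed knockouts. High-fat (84.7 to 95.65 and 117.6 to 141.6) and Cav1 groups (81.8 to 98.7 and 104.9 to 124.6) were separated in the same way. Fasted (83.8 to 109.1 and 102.3 to 139.5) and western-diet groups (63.7 to 127.4 and 80.7 to 106.1) overlapped. After refeeding 8 of 13 collagen processing genes were higher in controls and 9 of 13 in knockouts, where 24.1% and 24.6% of all genes were called higher, with none lower, among them the prolyl hydroxylase subunit P4ha2 (2.08 ± 0.23 and 1.81 ± 0.25). In high-fat controls against chow 4 of 13 were called, where 8.46% of all genes were, with P4ha1 (1.26 ± 0.25), the collagen chaperone Serpinh1 (1.08 ± 0.25) and P4ha2 (0.85 ± 0.23) higher and P3h1 lower. In western against high-fat knockouts 4 of 19 TGF-beta genes were called, where 8.45% of all genes were and 4.43% higher. All 4 were higher: the integrin Itgav (0.80 ± 0.14), the receptor Tgfbr1 (0.64 ± 0.13), Smad4 (0.39 ± 0.09) and Nox4.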

How the data were processed

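RNA of 46 snap-frozen mouse livers was sequenced and the authors deposited 4 tables of raw counts per gene; per the submitters' processing notes the tools were FastQC 0.11.9, MultiQC 1.10.1, STAR 2.7.8a and featureCounts 2.0, with GRCm39. The counting strand and annotation release are not given in the sources used here. Genes with at least 10 counts in enough libraries and 15 in all (filterByExpr) were tested with edgeR 4.0.16 (quasi-likelihood, TMM, R 4.3.3, limma 3.58.1), with Benjamini-Hochberg adjustment over all genes of the fit. Plvap effects on chow and the Cav1 effect were fitted within their own tables, diet contrasts within the diet table, and contrasts across tables and the mean over states in 1 fit of the Plvap line. Scripts were tested on simulated data. Alternatives were DESeq2 1.42.0, its size factors, other filters, a replicate block, leaving out each library, fits of 2 groups and, chosen after seeing the data, removal of a gene length trend. The 42 genes and the further lists were chosen with earlier results of these data known. Genes named per comparison were all called if 8 or fewer, otherwise the 8 with the smallest p, or the 3 smallest where fewer than 3 were called, beside 7 genes always followed. Replicate letters of the refed livers varied together between genotypes (r = 0.489, 0.455, 0.435 and 0.425 for A to D), which the labels do not explain. Total counts, 6656342 to 23311539 per library, limit the precision of genes with few counts. Fasting hours follow each sample's own characteristics where the free text differs. Some results of the further lists are not reported here.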

Additional observations from a re-analysis of the deposited data

Results flagged for a closer look

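Mean log2(CPM + 0.5) per role was examined for a library far from the rest of its group in 80 combinations of role and group, of which 5 were found; chance gives about 1 in 20. The western-diet control A was the highest of its group for fibrillar collagens, at 4.543 against 2.569 to 3.045 in the other 4 livers, and for matrix proteoglycans and glycoproteins, at 6.234 against 5.767 to 5.891. The western-diet knockout B was the lowest for the latter role, at 5.703 against 5.879 to 5.912. The high-fat knockout A was the lowest for contractile and activation genes, at 2.569 against 2.882 to 2.976. The chow fasted knockout D was the lowest for the other collagens, at 2.913 against 3.211 to 3.254. Replicate C of the Cav1 knockouts, said above to stand apart by its collagens, was in none of the 5.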

How the results depend on the processing

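Counts are of the genes described here that were called. DESeq2 called 1 for the Plvap effect on chow fasted, 1 refed, 1 for western diet against chow in knockouts and 5 for western against high-fat diet in knockouts, where edgeR called 0, 0, 0 and 2. Without a filter on low counts the Cav1 effect had 4, western against high-fat diet in knockouts 1, western diet against chow in controls 1 and high-fat diet against chow in controls 0. Fits of only 2 groups gave 5 for western against high-fat diet in knockouts, 0 for western diet against chow in controls and 5 in knockouts. With the replicate block the count was 0 for western against high-fat diet in knockouts and 0 for high-fat diet against chow in controls, and the block changed no other count by over 1.5 times. Outside the refed livers r ran from -0.351 to 0.470 between same-lettered livers, the highest in chow fasted livers C, and the labels do not say what the letters stand for. Leaving out 1 library gave 0 to 3 for western against high-fat diet in knockouts, 0 to 3 for western diet against chow in controls (0 without the western-diet control A) and 0 to 2 for high-fat diet against chow in controls, where it was 0 without chow fasted control D or F or high-fat control A, C, D or E. DESeq2 size factors, a filter at 1 CPM and removal of the length trend left all 16 counts within 1.5 times, and no result reversed. The cause of these shifts was not tested. Over all genes, edgeR and DESeq2 called 289 and 713 for the Plvap effect fasted (713 also with the replicate block, and 90 to 550 with 1 library left out), 3 and 59 refed, 2 and 21 on western diet, 38 and 244 on high-fat diet, and 607 and 939 for Cav1. Low depth limits Timp1, Lox, Tgfb3 and Tagln most.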
